A study of Homo sapiens with 38 samples.

Results

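The regions described here are wide stretches of H3K27ac in stimulated Jurkat cells at which neither GATA3 nor BHLHE40 was listed. They are the lines of the H3K27ac list that are at least 500 bp wide and overlap no line of the GATA3 list and no line of the BHLHE40 list by even 1 bp. They were chosen by their measured width and factor overlap, so those values are not findings. The rule found 3465 regions, called factor-free wide regions below, of 113570 H3K27ac regions in all and of 17660 that reach 500 bp. H3K27ac is acetylation of lysine on the tail of histone H3. It is placed by acetyltransferases that transcription factors recruit, and it marks active promoters and enhancers. GATA3 is a zinc finger factor that drives T-cell development and binds GATA motifs. BHLHE40 is a basic helix-loop-helix factor, mostly a repressor, that binds the E-box CACGTG and is induced when T cells are activated.

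Jurkat is an established human T-cell acute lymphoblastic leukaemia line. The series profiled proteins and histone marks by chromatin immunoprecipitation and sequencing in 38 samples that form 19 groups of 2, comparing a base-edited element with a control guide and lentiviral BHLHE40 over-expression with its control. Used here are 3 groups of 2 samples, the H3K27ac, GATA3 and BHLHE40 pulldowns of wild-type Jurkat cells with the control lentivirus (Ctrl_LV), each stimulated with 50 ng/ml PMA (a phorbol ester) together with 500 ng/ml ionomycin, a calcium ionophore, which mimic T-cell receptor signalling. The stimulation lasted 5 hours per the treatment label and 2 hours per the protocol. Each group is represented by 1 list of peaks that stands for both of its samples, so no value per sample, no spread between replicates and no test across samples can be given. The labels do not say whether the 2 samples are separate cultures. The signal value (enrichment) and the −log10 q-value, written q in brackets, were given by the authors for each peak, and the depth behind them is unknown. Intervals in brackets are 95% Wilson intervals, which cover counting only, and regions of 1 list are not independent replicates. The T-cell label was checked against marker genes: an H3K27ac region lay within 1 kb of 10 of 12 T-cell genes (not of TRAC and TRBC2), of 1 of 6 B-cell genes (CD79A) and of 1 of 6 myeloid genes (CD68).

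Factor-free wide regions made up 19.6% of the 17660 wide regions (interval 19.0% to 20.2%), whereas 73.6% of all 113570 H3K27ac regions lacked both factors. Of the remaining wide regions, 7545 overlapped both factors, 5961 overlapped BHLHE40 only and 689 overlapped GATA3 only. "Factor-free" means absent from these lists, which held 29009 GATA3 and 26205 BHLHE40 regions that repeated between samples at an irreproducible discovery rate of 0.05. It does not show that no factor was bound.

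Promoters of 6 genes that lie wholly inside such regions are shown, because the text names their regions or genes; they are not a sample of all such promoters. Each window runs from 250 bases before to 50 bases after the start site, read 5′ to 3′ on the gene's strand, from RefSeq on GRCh38.p14. Capitals mark matches on either strand to the E-box CACGTG, to the GATA motif AGATAA with its variant AGATAG, to the GATA motif TGATAA with its variant TGATAG, to the ETS motif CCGGAAG and to the cyclic AMP response element TGACGTCA. CDK16, a cyclin-dependent kinase (chrX:47218431-47218730, plus strand), and PPP1R3F, a glycogen-targeting subunit of protein phosphatase (chrX:49269543-49269842, plus strand), held no match. TRIM5, a restriction factor against retroviruses (chr11:5685025-5685324, minus strand), held 2 GATA matches. CLK3, a kinase of splicing factors (chr15:74615586-74615885, plus strand), held 1 ETS match. ZNF562, a zinc finger gene (chr19:9675051-9675350, minus strand), held 1 cyclic AMP element, and HNRNPF, an RNA-binding protein gene (chr10:43397228-43397527, minus strand), held no match.
CDK16: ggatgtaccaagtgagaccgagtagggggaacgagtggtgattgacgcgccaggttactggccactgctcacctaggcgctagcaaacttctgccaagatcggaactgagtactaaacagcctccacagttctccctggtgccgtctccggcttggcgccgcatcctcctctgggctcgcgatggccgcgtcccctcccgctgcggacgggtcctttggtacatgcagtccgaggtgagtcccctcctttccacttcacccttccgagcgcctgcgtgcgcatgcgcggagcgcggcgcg
PPP1R3F: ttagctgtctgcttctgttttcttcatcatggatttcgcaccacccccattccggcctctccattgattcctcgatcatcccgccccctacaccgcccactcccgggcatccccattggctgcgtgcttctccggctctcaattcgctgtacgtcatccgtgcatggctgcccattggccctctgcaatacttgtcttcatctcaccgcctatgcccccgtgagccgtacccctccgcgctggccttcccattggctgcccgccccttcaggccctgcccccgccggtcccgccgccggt
TRIM5: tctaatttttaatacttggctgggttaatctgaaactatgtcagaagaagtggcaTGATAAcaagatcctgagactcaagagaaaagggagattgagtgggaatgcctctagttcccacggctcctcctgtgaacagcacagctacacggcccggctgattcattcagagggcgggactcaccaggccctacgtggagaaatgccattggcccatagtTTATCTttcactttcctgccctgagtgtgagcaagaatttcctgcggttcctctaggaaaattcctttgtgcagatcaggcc
CLK3: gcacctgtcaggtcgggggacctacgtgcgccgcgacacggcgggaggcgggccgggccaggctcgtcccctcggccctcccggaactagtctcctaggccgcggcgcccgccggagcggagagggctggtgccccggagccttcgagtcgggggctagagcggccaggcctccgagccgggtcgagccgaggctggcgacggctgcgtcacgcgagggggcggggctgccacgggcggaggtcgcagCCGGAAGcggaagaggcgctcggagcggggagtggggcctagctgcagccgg
ZNF562: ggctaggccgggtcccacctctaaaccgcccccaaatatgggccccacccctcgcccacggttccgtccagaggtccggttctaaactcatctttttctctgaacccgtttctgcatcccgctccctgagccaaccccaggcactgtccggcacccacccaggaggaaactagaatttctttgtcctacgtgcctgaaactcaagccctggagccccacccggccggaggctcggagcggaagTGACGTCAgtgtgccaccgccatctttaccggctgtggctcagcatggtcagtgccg
HNRNPF: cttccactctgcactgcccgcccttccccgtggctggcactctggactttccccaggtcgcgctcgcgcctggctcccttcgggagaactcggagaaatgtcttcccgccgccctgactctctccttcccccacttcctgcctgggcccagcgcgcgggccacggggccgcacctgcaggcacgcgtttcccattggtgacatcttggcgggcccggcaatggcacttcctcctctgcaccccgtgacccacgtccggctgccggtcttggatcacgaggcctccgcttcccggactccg
None of these 6 held the E-box that BHLHE40 binds, but that follows from which were shown: SUMO3, a gene for a small ubiquitin-like modifier (q 89.8), had one, named here after its values were seen. A match is a description of the letters and not evidence of a bound site.

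The rule used width and factor overlap, so the width, signal value and q-value of the members describe the choice and are not tested. The median width of factor-free wide regions was 659 bp, against 691 bp with GATA3 only, 826 bp with BHLHE40 only and 924 bp where both overlapped. Their median signal value was 4.33 (quartiles 3.52 to 5.55, highest 22.1). It was 4.19 with GATA3 only, 6.29 with both and 6.37 with BHLHE40 only, so members lay near the GATA3-only class and below the classes with BHLHE40. Narrower regions without factors had a median signal value of 3.11. Of the members, 2613 (75.4%) had a −log10 q of at least 5, against 7.45% of the 80105 narrower regions without factors. At the limit itself, 5 members of 500 bp had signal values of 2.65 to 8.42 and a −log10 q of 3.20 to 63.5. For 5 excluded regions that were 1 bp narrower the ranges were 2.91 to 6.58 and 2.10 to 26.3.

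The share of wide regions without factors differed with width and q. Because the rule used width and overlap, and a wider region meets the 1 bp overlap more easily, the shares by width are partly set by the rule and only describe the choice. The share was 34.4% of 3640 regions of 500 to 599 bp, 16.03% of 3555 regions from 800 to under 1000 bp and 2.87% of 942 regions of at least 1500 bp. By −log10 q, it was 52.4% of 1557 regions from 2 to 5, 23.8% of 3813 from 10 to 20 and 1.09% of 1833 at 100 or more. Among members, 20 had a −log10 q of at least 100, and 85 lay between 50 and 100.

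**Figure D1:**
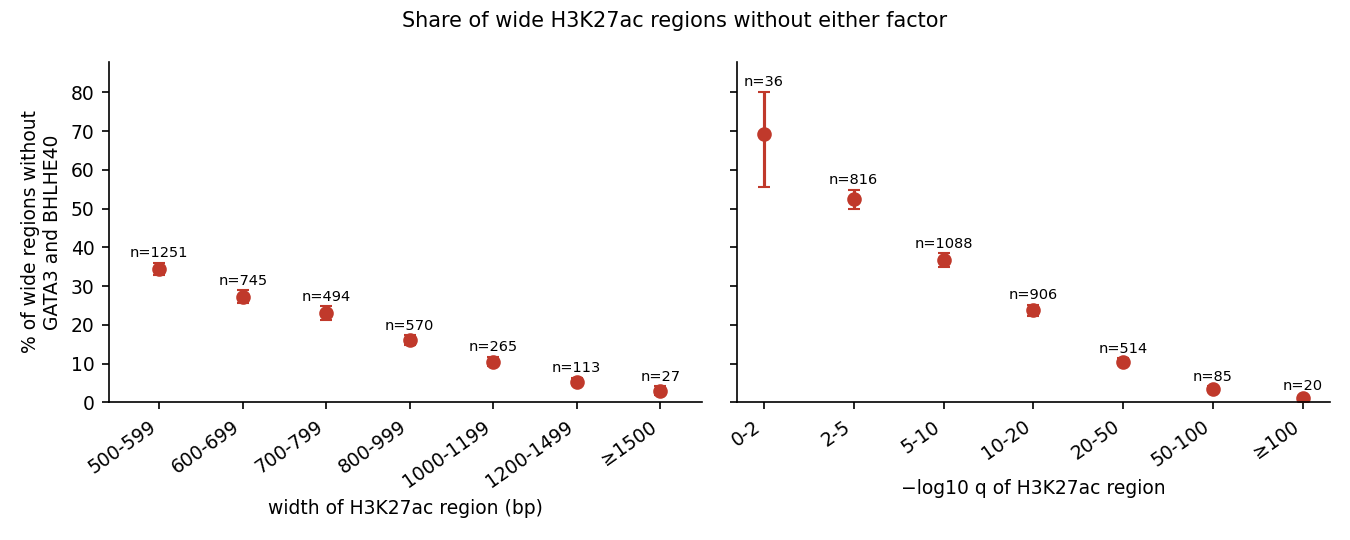
Percentage of wide H3K27ac regions that overlap neither GATA3 nor BHLHE40, by region width in bp (left) and by −log10 q (right); points are shares, bars 95% Wilson intervals, and n the number of factor-free regions. The share is 34.4% at 500 to 599 bp and 2.87% at 1500 bp or more, which the rule partly sets, and goes from 52.4% at a −log10 q of 2 to 5 to 1.09% at 100 or more.

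The position of the summit relative to genes was not used by the rule. Of the members, 984 (28.4%, interval 26.9% to 29.9%) had a summit no more than 1 kb from one of the 2 ends of a gene record, a gene boundary in what follows. Over all wide regions this share was 48.6% and over all H3K27ac regions 18.1%. It was 65.9% (interval 64.7% to 67.1%) with BHLHE40 only, 46.8% (interval 45.6% to 47.9%) with both and 20.9% (interval 18.0% to 24.1%) with GATA3 only. Most of the others lay inside genes: 1760 members (50.8%) lay in a gene record away from its ends and 721 (20.8%) between genes, against 25.8% and 8.30% with BHLHE40 only.

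Significance moved with position in every class, so the shares were also read at like q. Between a −log10 q of 10 and 20, 33.2% of 906 members, 59.5% of 1384 regions with BHLHE40 only, 28.6% of 1352 with both and 21.6% of 171 with GATA3 only were at a gene boundary. Between 20 and 50 the shares were 49.0%, 71.2%, 47.4% and 37.7%. From 2 to 5 they were, in the same order, 15.1%, 41.2%, 11.8% and 11.1%, and from 5 to 10 23.4%, 46.3%, 17.9% and 14.5%. In these ranges, from 2 to 50, the members lay nearer to regions with both factors than to BHLHE40 only. Their shares there were above those with both, unlike over all q (28.4% of members against 46.8% with both). At 50 to 100 the share was 49.4% of 85 members and 63.6% with both, and at 100 or more 40.0% of 20 and 73.6%. At like width the gap to BHLHE40 only was also seen: from 800 to under 1000 bp, 33.0% of 570 members and 69.0% of 1335 regions with BHLHE40 only were at a gene boundary. With both factors it was 49.7% of 1542 regions. Members lay below regions with both in every width range, with 24.1% against 32.0% from 500 to under 600 bp and 40.7% against 47.0% from 1500 bp. Shares of members above those with both, as at like q, were thus not seen at like width.

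**Figure D2:**
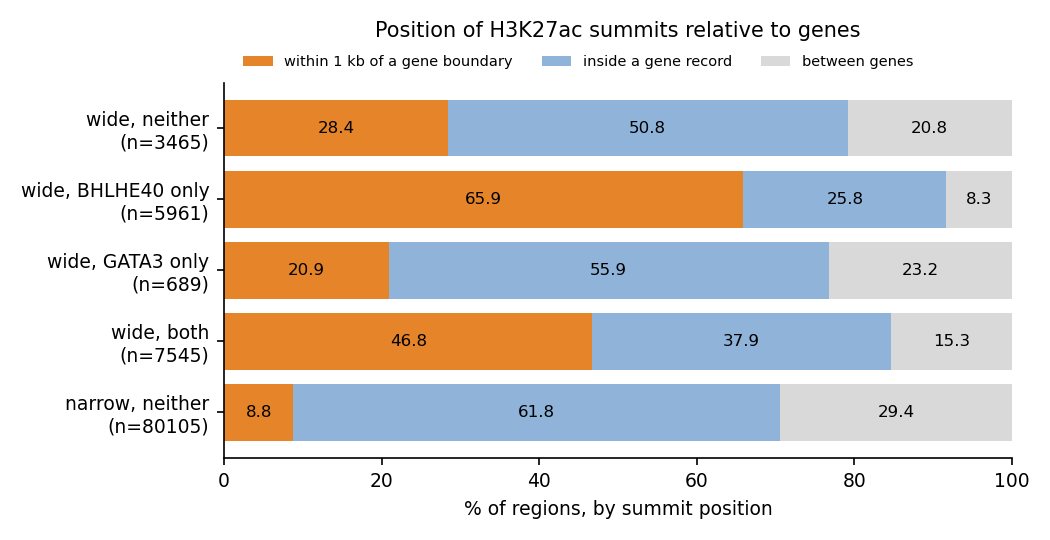
Share of H3K27ac regions (%) whose summit lies within 1 kb of a gene boundary, inside a gene record or between genes, for the 4 classes of wide regions and for narrower regions without factors. Factor-free wide regions have 28.4% at a gene boundary and 50.8% inside genes, against 65.9% and 25.8% with BHLHE40 only.

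With strand known, the start sites gave a finer picture for 3324 members. The summit lay within 1 kb of a listed start site in 779 of them (23.4%, interval 22.03% to 24.9%), and more often downstream: 567 (17.1%) lay up to 1 kb downstream and 212 (6.38%) up to 1 kb upstream. With BHLHE40 only, 41.6% lay downstream and 18.6% upstream. Most of that difference sat next to the start site. In the first 250 bp downstream lay 10.3% of members and 31.7% of regions with BHLHE40 only, whereas 500 to 750 bp downstream the shares were 2.17% and 1.97%. The median distance to the nearest start site was 14683 bp for members, 371 bp with BHLHE40 only, 5998 bp with both and 19301 bp with GATA3 only.

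**Figure D3:**
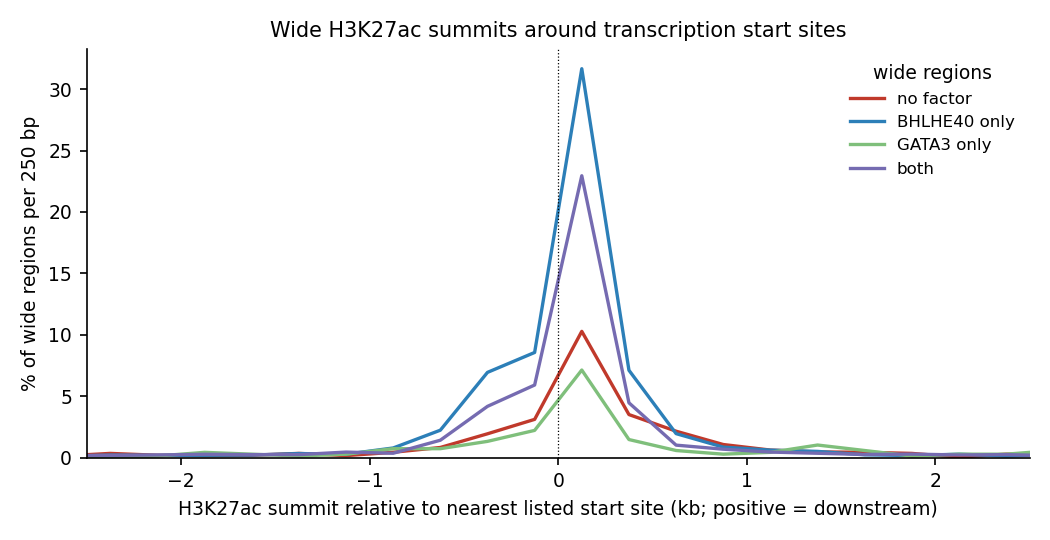
Percentage of wide H3K27ac regions per 250 bp bin of distance from the nearest listed start site (kb, positive downstream), with 1 line per class of region. All classes peak in the first 250 bp downstream, at 10.3% for factor-free regions and 31.7% for BHLHE40 only.

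The promoters inside members had less CpG than those inside wide regions with BHLHE40. Their share with fewer than 10 CpG dinucleotides was near that with GATA3 only, while their median lay between. Windows of 300 bp lying wholly inside a member numbered 381 and held a median of 23 CpG dinucleotides, and 82 of them (21.5%) held fewer than 10. With BHLHE40 only, the median was 27 and 4.56% of 2414 windows held fewer than 10. With both factors it was 26 and 5.65% of 2565, with GATA3 only 19.5 and 23.1% of 52, and over all 35116 listed windows 14 and 43.6%. Among regions with a −log10 q of 10 to 50 the shares with fewer than 10 were 20.9% of 258 windows in members, 23.5% of 34 with GATA3 only, 8.09% of 816 with both and 3.997% of 1326 with BHLHE40 only. TRIM5, with 6 CpG dinucleotides in the window printed above, was one such promoter, while CLK3, with 41, was not.

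Motif matches were counted in the same windows. The E-box CACGTG was found in 33 of 381 member promoters (8.66%, interval 6.23% to 11.9%), in 11.9% (interval 10.7% to 13.2%) with BHLHE40 only, in 1.92% (interval 0.340% to 10.1%) with GATA3 only and in 7.26% of all listed promoters. Any of the 4 GATA motifs was found in 57 (15.0%, interval 11.7% to 18.9%), in 17.5% (interval 16.1% to 19.1%) with both factors, in 10.1% (interval 8.97% to 11.4%) with BHLHE40 only, in 32.7% (interval 21.5% to 46.2%) with GATA3 only and in 25.0% of all. The ETS motif was found in 73 (19.2%, interval 15.5% to 23.4%), in 29.5% (interval 27.7% to 31.3%) with BHLHE40 only, in 28.8% (interval 18.3% to 42.3%) with GATA3 only and in 10.3% of all. The GC box GGGCGG was found in 218 (57.2%, interval 52.2% to 62.1%), in 71.3% (interval 69.5% to 73.1%) with BHLHE40 only, in 61.5% (interval 48.0% to 73.5%) with GATA3 only and in 44.95% of all. The cyclic AMP element was found in 13 (3.41%), in 5.10% with BHLHE40 only and in 1.85% of all, and the TATA motif TATAAA in 15 (3.94%), in 3.02% and in 11.5%. Between members and BHLHE40 only the intervals for the E-box overlapped. Those for the GATA motifs (more often in members) and for the ETS motif and GC box (less often) did not. With both factors the E-box was found in 11.1% (interval 9.95% to 12.4%) and the ETS motif in 28.7% (interval 27.01% to 30.5%). The GC box was found there in 62.6% (interval 60.7% to 64.4%). Against regions with both, the intervals of members for the E-box, GATA motifs and GC box overlapped, and those for the ETS motif did not. Among regions with a −log10 q of 10 to 50 this changed for the ETS motif and GC box. The ETS intervals overlapped there, at 19.8% in members (interval 15.4% to 25.1%) and 27.7% with both (interval 24.7% to 30.9%). The GC box intervals did not, at 54.7% (interval 48.6% to 60.6%) and 64.5% (interval 61.1% to 67.7%). Overlap of intervals only describes these counts and is not a test. Between members and GATA3 only the intervals for the GATA motifs did not overlap over all windows. At a −log10 q of 10 to 50 they did overlap. The shares there were 15.9% of 258 windows in members (interval 11.9% to 20.8%) and 26.5% of 34 with GATA3 only (interval 14.6% to 43.1%).

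Factor regions were often near. The median gap from the edge of a member to the nearest GATA3 or BHLHE40 region was 8990 bp (quartiles 2764 to 22675 bp), and the shortest was 3 bp. The nearest region was a BHLHE40 region for 1758 members and a GATA3 region for 1694. A gap under 200 bp was found for 202 members (5.83%), and 319 more lay from 200 bp to under 1 kb away. At the other end, 830 lay from 20 to 100 kb away and 136 (3.92%) at least 100 kb away or on a scaffold without factor regions. Members with a gap under 200 bp stood apart in position: 102 of 202 (50.5%, interval 43.7% to 57.3%) were at a gene boundary and BHLHE40 was nearer in 146. Between 1 and 5 kb 21.8% (interval 18.8% to 25.1%) of 670 were at a gene boundary, and between 20 and 100 kb 31.7% (interval 28.6% to 34.9%) of 830. The median signal value was 4.15 under 200 bp, 3.81 from 200 bp to 1 kb and 4.93 at 100 kb or more, while the median −log10 q was 10.7, 8.40 and 8.98. Members far from any factor region thus had signal values at least as high as those close by, and q did not follow the same order.

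**Figure D4:**
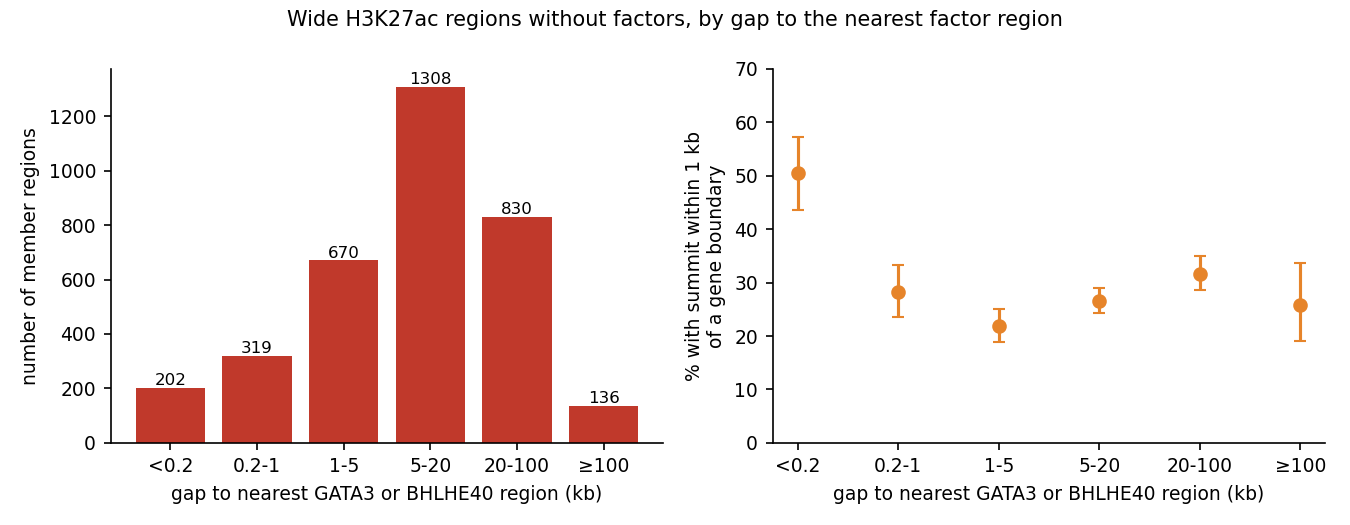
Number of factor-free wide regions (left) and percentage with a summit within 1 kb of a gene boundary (right, bars 95% Wilson intervals), by gap in kb to the nearest GATA3 or BHLHE40 region. The 5 to 20 kb class is the largest with 1308 regions, and the class under 0.2 kb has the highest share at gene boundaries, 50.5%.

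Other H3K27ac regions also lay close by, though less often than over all wide regions. A further H3K27ac region lay within 1 kb of 1483 members (42.8%, interval 41.2% to 44.5%). Over all wide regions the share was 48.1%, and the other classes ranged from 46.6% (GATA3 only, interval 42.9% to 50.3%) to 49.8% (BHLHE40 only). In 298 of the 1483 (20.1%, interval 18.1% to 22.2%) the nearest such region carried a factor. For comparison, 73.6% of all H3K27ac regions lacked both factors. When wide regions with gaps up to a limit of about 13 kb were chained, 2119 members (61.2%) stood alone, 1081 (31.2%) shared a chain with a wide region that carried a factor and 265 (7.65%) lay in chains of members alone. The share that stood alone was 53.5% with both factors, 57.0% with GATA3 only and 58.1% with BHLHE40 only.

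The most significant members show both situations. The highest −log10 q, 295, belonged to chr6:53359493-53360913 (signal value 7.26), between genes at -10775 bp (minus means upstream) from a start site of ELOVL5, a fatty acid elongase gene. It lay 252 bp from a BHLHE40 region and 535 bp from a GATA3 region, so it flanked listed sites of both. The next, chr7:26201713-26202544 (q 265, signal value 9.23), lay 477 bp downstream of the start of CBX3, which encodes a heterochromatin protein, and 153 bp from a GATA3 region. Its BHLHE40 gap was 49241 bp. The same region lay 967 bp from a start site of HNRNPA2B1, an RNA-binding protein gene.

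The gaps of others were longer. On the X chromosome, chrX:47218232-47219099 (q 197, signal value 15.5) covered the promoters of CDK16 and of LOC105373194, with 13621 bp to the nearest factor region. The region at NONO, a nuclear RNA-binding protein gene (chrX:71283559-71284435, q 158, signal value 12.8), was 28064 bp from BHLHE40 and 101352 bp from GATA3. The TRIM5 region (chr11:5684354-5685517, q 127, signal value 14.3) was 34162 bp from the nearest factor. The PPP1R3F region (chrX:49269268-49270053, q 121, signal value 18.5) was closer, at 3106 bp, below the median gap of members. Of the 966 members with no factor region within 20 kb, 235 had a listed start site within 1 kb. The region with the longest gap on a named chromosome lay at -214 bp from a BTBD3 start site (chr20:11891595-11892554, q 8.97, signal value 4.42), 1217064 bp from the nearest factor region.

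On chromosomes 1 to 22 and X the share of wide regions without factors ran from 16.7% on chromosomes 6 and 19 to 24.9% on chromosome 21 (interval 19.6% to 31.1%). Chromosome X, with 109 members, had 47.7% of them at a gene boundary and chromosome 19, with 145, had 46.2%, against 16.7% to 35% on the other autosomes. The same share of other wide regions was not counted per chromosome, so whether this is particular to members was not tested.

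Gene groups were counted by whether a member lay within 1 kb of the start site (either record end where no start site was listed). Of 20050 protein-coding genes, 908 (4.53%) had a member there, 629 (3.14%) had one and no factor region within 1 kb, and 7683 (38.3%) had a wide region with a factor. The lists below were chosen with earlier results of these data known, and their counts are descriptions beside these backgrounds.

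Genes of T-cell receptor signalling included 4 of 27 (14.8%) with a member: CD1E, CD5, CD2 and CD28. CD1E, of the lipid antigen-presenting family, had its start site inside chr1:158353005-158354258 (signal value 2.80, q 12.6), 7246 bp from the nearest factor region. CD5, an inhibitory co-receptor, had a member 809 bp from its record end (chr11:61092225-61093154, signal value 4.33, q 9.03), and CD2, an adhesion receptor, 519 bp away (chr1:116754949-116755493, signal value 2.49, q 7.06). At CD28, the main co-stimulatory receptor, a member of 525 bp lay 284 bp from a GATA3 region, and a factor region lay within 1 kb of the start site. In the same list 15 of 27 genes had a wide region with a factor, CD3D, CD3E, CD3G, CD247 and LCK among them.

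Transcription factor genes of T cells and T-cell leukaemia had no member within 1 kb of the start site in 37 genes (TAL1, LMO2, MYB, RUNX1 and GATA3 among the list), although 16 had a wide region with a factor. Inside their records the picture differed: 11 of 37 (29.7%) held a member, against 9.55% of protein-coding genes. So did 7 of 27 genes of T-cell receptor signalling (25.9%). In the other lists the share ran from 0% (cytosolic ribosomal protein and replication-dependent histone genes) to 19.4% (NADH dehydrogenase genes). Wide regions with a factor were also held by more genes of both lists, 21 of the 37 (56.8%) and 20 of the 27 (74.1%), against 35.4% of protein-coding genes. ETS1 held 2 members beside 5 wide regions with a factor, RUNX1 1 beside 9 and IKZF1 1 beside 7. NOTCH1, the receptor often mutated in this leukaemia, held 1 member (q 22.4) and no wide region with a factor. Record length was not taken into account in these counts.

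Activation genes had a member at 2 of 53 (3.77%): NFKB1, a subunit of NF-kB (chr4:102501680-102502306, signal value 6.84, q 42.4), 188 bp from a BHLHE40 region, and DUSP4, a MAP kinase phosphatase, at a record end (chr8:29350933-29351621, signal value 7.32, q 16.1), 139 bp from one. Both also had a factor region within 1 kb of the start site, so no activation gene had a member alone. The list includes FOS, JUN, EGR1, NR4A1, CD69 and IL2. Among 22 clock genes CSNK1E, a kinase of the PER proteins, had one, 845 bp away (q 13.4).

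Housekeeping groups differed among themselves. None of 83 cytosolic ribosomal protein genes had a member, and 79 (95.2%) had a wide region with a factor. None of 69 replication-dependent histone genes had one either, with 52 (75.4%) next to a wide region with a factor. Among SR and hnRNP genes 2 of 38 had a member, HNRNPA2B1 and HNRNPF, each with a factor region within 1 kb of a listed site of the gene as well. Of 36 genes for subunits of NADH dehydrogenase, the first complex of the respiratory chain, 5 (13.9%) had a member, and none of the 5 had a factor region within 1 kb. These were NDUFA10 (chr2:240025220-240025914, signal value 7.57, q 26.8), NDUFC2 (chr11:78079302-78080313, signal value 6.15, q 24.8), NDUFA9 (signal value 6.47, q 20.7), NDUFA8 (signal value 5.07, q 10.6) and NDUFB8 (signal value 3.45, q 5.14). In all 5 the start site or record end lay inside the member, and the nearest factor region was 5607 bp (NDUFB8) to 62960 bp (NDUFA8) away. In that list 28 genes (77.8%) had a wide region with a factor.

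Zinc finger genes with ZNF numbers, most of which encode DNA-binding repressors, had a member at 37 of 477 (7.76%), 27 of them without a factor region within 1 kb (5.66%). The most significant was ZNF562 (chr19:9674377-9675505, signal value 10.4, q 95.4), 18 bp from a BHLHE40 region. ZNF714 (q 44.2), ZNF543 (q 42.6) and ZNF429 (q 37.8) on chromosome 19 had signal values of 10.2, 8.84 and 10.3. ZNF543 and ZNF429 were 39315 bp and 96397 bp from the nearest factor region. In this list 243 genes (50.9%) had a wide region with a factor.

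At lineage genes of other cells and at HOX genes the shares with a member were near the 4.53% of protein-coding genes, on small counts. Any H3K27ac region lay within 1 kb of only 3 of the 18 lineage genes and 13 of the 39 HOX genes, against 55.3% of protein-coding genes. Of 18 B-cell and myeloid genes, BLK, a kinase of B cells, had a member (5.56%) over a record end (chr8:11494287-11494893, signal value 4.58, q 10.3), and none had a wide region with a factor. Of 39 HOX genes, HOXA7 (signal value 6.48, q 19.9) and HOXB7 (signal value 5.39, q 11.0) had one (5.13%), neither with a factor region within 1 kb of its site, and 5 had a wide region with a factor. Among 18303 long noncoding RNA genes 306 (1.67%) had a member, but only 4273 (23.3%) had any H3K27ac region within 1 kb. Members overlapped 4 of 1562 listed microRNA hairpins, and other wide regions 67, to be read beside the 19.6% of wide regions that were members.

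Single loci were examined that had been chosen after their values were seen. At the butyrophilin genes of chromosome 6, which encode immunoglobulin-family receptors that gamma delta T cells recognise, 8 of 9 wide regions in a window of 121 kb were factor-free. The window held 2 GATA3 regions and 1 BHLHE40 region. Members lay at BTN3A2, at 26364107 to 26365107 (signal value 4.35) and 26365185 to 26365728 (signal value 5.45), at BTN2A2, at 26383008 to 26383563 (signal value 6.10), and at BTN3A1, at 26402212 to 26402821 (signal value 7.60). BTN2A1 held a member at its start, 26457438 to 26458385 (signal value 5.94), and a second of 2081 bp near its far end, 26473527 to 26475607 (signal value 7.08, q 61.6), the third widest of all members. The wide region at the start of BTN3A3 overlapped GATA3.

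The GIMAP genes of chromosome 7, which encode GTPases of lymphocytes, showed a mixture. In a window of 303 kb, 5 of 13 wide regions were factor-free, 4 had both factors, 2 GATA3 only and 2 BHLHE40 only. Members covered the starts of GIMAP7 (1518 bp, signal value 4.28), GIMAP2 (1906 bp, signal value 4.57) and GIMAP1 (1653 bp, signal value 4.77). The region at the start of GIMAP6 overlapped GATA3 and that at GIMAP5 overlapped BHLHE40. Members at GIMAP2 and GIMAP1 were among the 10 widest members, and the nearest factor regions lay 7514 bp and 19972 bp away. At the CD1 genes of chromosome 1, which encode lipid antigen-presenting molecules, 2 of 12 wide regions were factor-free, 6 had both factors, 2 BHLHE40 only and 2 GATA3 only.

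**Figure D5:**
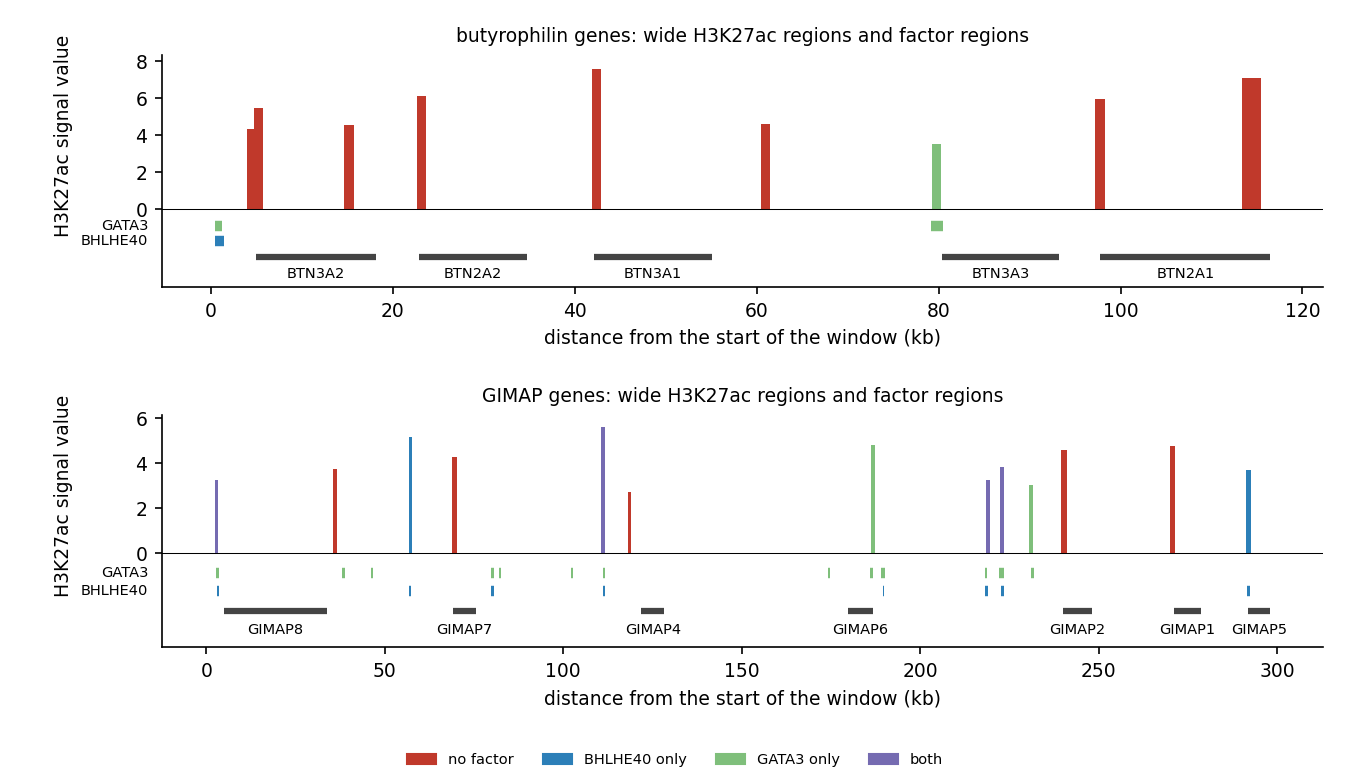
Wide H3K27ac regions at the butyrophilin genes (top) and the GIMAP genes (bottom), with bar height giving the authors' signal value, colour the class, and distance in kb from the start of each window; bars are drawn at least 1 kb wide. Factor-free regions are 8 of 9 at the butyrophilin genes and 5 of 13 at the GIMAP genes.

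Inside single genes the highest count of members was 7, in ETV6, RPTOR and LDLRAD4. Their records are long, at 245704, 421531 and 435073 bp, and the counts in this paragraph were not set against length. ETV6 encodes an ETS-family repressor that is rearranged in leukaemia. Its promoter region overlapped BHLHE40 only (signal value 12.8), and 5 of its members formed a run from 11787997 to 11813152 on chromosome 12, in the body of the gene. Their signal values ran from 2.16 to 4.81, and the closest factor region lay 934 bp away. RPTOR, a subunit of the mTOR kinase complex, held 7 members beside 9 wide regions with a factor, and ETV6 7 beside 4. MYO18A, an unconventional myosin gene, held 5 members and no wide region with a factor, and MAP4, a microtubule-associated protein gene, 4 and none.

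The widest member, chr9:133701044-133703457 (2414 bp, signal value 7.31, q 107), lay inside SARDH, a mitochondrial sarcosine dehydrogenase gene, 1849 bp from a GATA3 region. The next, chr5:95822686-95824808 (2123 bp, signal value 5.47, q 31.9), lay 1514 bp upstream of GLRX, a glutaredoxin gene, and 687 bp from a GATA3 region. Members over the starts of CLK3 and CLK3-AS1 (chr15:74614838-74616576, 1739 bp, signal value 8.67, q 102) and of GTF2F2, a subunit of a general transcription factor (chr13:45119370-45121047, 1678 bp, signal value 6.06, q 21.1), lay 55 bp and 63277 bp from the nearest factor region.

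Some strong members lay far from genes. On chromosome 16 a run of 5 members from 46388606 to 46401038 had signal values of 2.98 to 5.86 with a −log10 q of 40.8 to 223, at least 68687 bp from a gene boundary and 181742 bp from a factor region. A second run of 5, from 34571844 to 34595571, had a −log10 q of 13.3 to 166 and lay at least 139193 bp from a gene boundary and 396231 bp from a factor region. The highest signal value of all members, 22.1, was at chr17:26603738-26604418 (q 89.1), 377778 bp from the nearest gene boundary. On unplaced scaffolds 13 of 16 wide regions were members. These regions include 4 of the 10 members with the highest −log10 q. No list of repeats, centromeres or regions of unreliable mapping was used here. Whether the members of this paragraph lie in such sequence was therefore not tested.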

How the data were processed

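The 3 deposited peak lists stand for the Ctrl_LV groups of H3K27ac, GATA3 and BHLHE40, with 2 samples each; the other 16 groups were not analysed here. The submitters' processing notes name MACS2 and the build hg38 for these samples, and filters and the use of input are not given in the sources used here. The authors' score in the factor lists is on the scale of the irreproducible discovery rate, with a threshold of 0.05 per the labels. The authors' signal value measures enrichment per peak, and its reference is not given in the sources used here. The −log10 q per peak is one of the authors' deposited values. An irreproducible discovery rate filter keeps only repeatable factor peaks, whereas the pooled H3K27ac list carries no such threshold in its label, so weak factor binding can be missing where H3K27ac is listed. Depth is unknown.

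Regions were overlapped by at least 1 bp, and gaps run from edge to edge. The RefSeq table of GRCh38.p14 supplied 59716 gene records, of which 20050 were protein-coding, and 35116 RefSeq promoter windows supplied start sites, with none used from chromosome 8. Coordinates are 1-based. No test was run, since each group gave 1 list. The overlap, gap and distance functions were tested on simulated data. Regions were named from among the 10 members with the highest −log10 q, the 10 widest and the 5 with the highest signal value. The 5 farthest from a factor region and the longest runs were also drawn on, and not every region so selected is described. Named genes were those of the 11 gene lists with a member within 1 kb, up to 5 per list. The members and lists were chosen with earlier results of these data known. Tables were handled with pandas 2.3.3 and numpy 2.4.6 in Python 3.11.15, intervals came from scipy 1.17.1 and plots from matplotlib 3.10.9.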

Additional observations from a re-analysis of the deposited data

How the results depend on the processing

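Of 42 values under other settings, 10 stayed within the reported interval (for the number of members, within 1.5 times) and 32 moved; the cause was not tested beyond what each setting does by its construction. A minimum width of 400, 750 or 1000 bp in place of 500 bp gave 6200, 1209 and 405 members, shares without factors of 26.3%, 11.9% and 7.26%, gene-boundary shares of 24.2%, 33.5% and 34.8%, median signal values of 3.85, 5.04 and 5.36, and, at 400 and 1000 bp, median gaps of 9669 and 7246 bp. Factor regions with a score of at least 830 gave a share of 26.2%, 33.7% at gene boundaries, a signal value of 4.55 and a gap of 11683 bp. Keeping H3K27ac regions whose −log10 q reached 5 gave 16.3%, 32.8% and 4.84. Asking for no factor region within 1000 bp gave 16.7%, 26.9%, 4.40 and 11612 bp. Joining H3K27ac lines with gaps of at most 200 bp gave 24.5%, 23.8%, 4.01 and 10669 bp. Chromosomes 1 to 22 without the 1% highest signal values gave a share of 20.6%. The gene-boundary share was 35.3% with a boundary within 2 kb and 23.4% with a start site within 1 kb. The unknown depth limits every count, since deeper factor libraries can list more regions and leave fewer members. No paired analysis was possible because the 3 lists give no separate values for the 2 samples behind them. For that reason no replicate could be left out either.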
